A study of Mus musculus with 48 samples.

Results

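The response of microglia to an ischemic stroke was followed in 12 bulk RNA-sequencing libraries, 6 of microglia from the ipsilateral hemisphere and 6 of microglia from the contralateral hemisphere, out of 48 libraries in which endothelial cells, pericytes and astrocytes of the same brains were also profiled. The mice were adult male C57BL/6 wild-type animals in which the right middle cerebral artery was occluded for 1 h and then reperfused for 23 h (tMCAO, transient middle cerebral artery occlusion). Each replicate was a pool of 3 to 4 mice, both hemispheres of a replicate came from the same mice, and the contralateral hemisphere of these operated animals served as the control, since no sham-operated mice were part of the libraries. Microglia were sorted as live CD45low/CD11b+ cells after enzymatic digestion of the tissue. The members described here were the 13300 of 24973 genes in the deposited table whose mean over these 12 libraries reached 10 normalized counts, and normalized counts are reads per gene divided by a size factor for each library.

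Microglia are the resident macrophages of the brain. In the undisturbed tissue they survey their surroundings with motile processes, sense nucleotides released by damaged cells through purinergic receptors such as P2RY12, and depend on signaling by the CSF1 receptor and by TGF-β for their identity. After an injury they retract their processes, take up debris and lipids, and release cytokines and chemokines that act on vessels and recruit blood leukocytes.

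The cell type was taken from the column names of the table, because the sample titles of the 6 ipsilateral pericyte and 6 ipsilateral microglia libraries name the opposite cell type. The summed normalized counts of 9 microglia markers were 401844 to 490174 in the contralateral and 193331 to 341518 in the ipsilateral libraries whose columns name microglia, against at most 56948 in the libraries whose columns name ipsilateral pericytes. The sum of 7 pericyte markers was at most 2726 in the microglia libraries and at least 37207 in the pericyte libraries. *Cd68*, a lysosomal protein of macrophages, was at least 16251 normalized counts in every microglia library and at most 7920 in any library of another cell type. From the spacing of low values the libraries held between 4900000 reads on genes (ipsilateral replicate 3) and 17100000 (ipsilateral replicate 1), so that the floor, set at 3 reads, lay at 8 normalized counts or lower, which reflects counting error alone. Ipsilateral replicate 2 stood apart from the other 5 ipsilateral libraries: mitochondrial genes held 3.657% of its counts (0.725% to 1.182% in the others), its 20 highest genes held 28.08% (14.49% to 18.39%), and its median correlation with its own group was 0.777 (0.869 to 0.902). The counts over all genes are therefore given with and without this replicate number, and those of the gene lists where it changed them by over 1.5 times and at least 2 genes.

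Stroke changed the microglial transcriptome in both directions. Of the 13300 genes, 1404 were called regulated (10.6%), with 570 upregulated (4.29%) and 834 downregulated (6.27%). A call required an adjusted p (Benjamini-Hochberg) no higher than 0.05 in limma on log2(normalized count + 1), a fold change of at least 1.5 (0.585 on the log2 scale), and a hemisphere in which each of the 6 replicates exceeded 10 normalized counts, and every fold change given here is on that log2 scale, which understates the change of low genes. The median log2 fold change was 1.19 among upregulated genes, -1.22 among downregulated genes and -0.18 over all genes tested. Of the 1404 regulated genes, 1281 moved the same way in all 6 pairs. By limma, an unadjusted p under 0.05 was found for 3725 of the 13300 genes. Over all genes tested, every ipsilateral value lay above every contralateral value for 503 (3.78%) and below for 636 (4.78%). Changes of at least 4-fold were found for 144 upregulated and 124 downregulated genes, and of at least 16-fold for 28 and 4. As these are bulk samples, fewer cells of a type and less RNA per cell cannot be told apart.

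**Figure D1:**
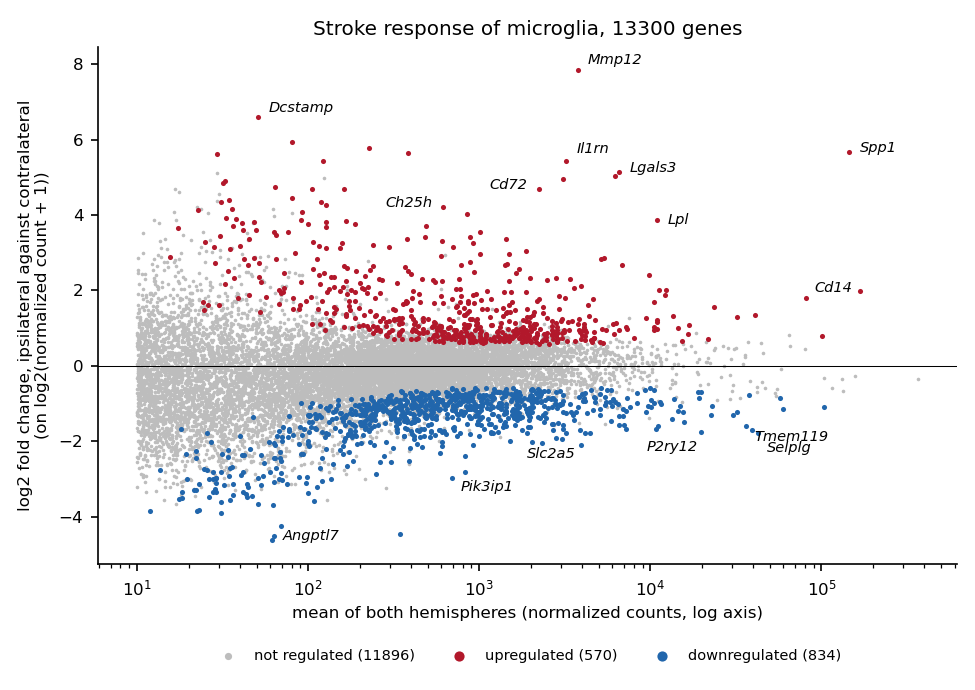
Mean level of each of 13300 genes over the 12 microglia libraries (x axis, normalized counts on a log scale) against its log2 fold change, ipsilateral minus contralateral (y axis); colored points are the 570 upregulated and 834 downregulated genes. Called genes lie on both sides, and the largest changes are upward, with *Mmp12* at 7.83.

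The number of calls depended on which pairs were included. Without replicate 2 in both hemispheres, 1906 genes were regulated (726 upregulated and 1180 downregulated), of which 1275 were among the 1404. Leaving out replicate 3, 4, 1, 6 or 5 left 541, 632, 843, 889 and 1023 regulated genes, and 473 genes (224 upregulated and 249 downregulated) were called in every one of the 6 fits. In a joint fit of 48 libraries, which shares the spread with the other cell types, 465 genes were upregulated and 504 downregulated, 725 of them among the 1404. The spread between ipsilateral libraries was the larger, with a median SD of 0.73 on the log2 scale against 0.44 between contralateral libraries, and 0.46 for the ipsilateral libraries without replicate 2. For genes given with a call in microglia whose adjusted p exceeded 0.05 when a replicate number was left out of both hemispheres, these numbers are given with the highest adjusted p reached.

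The upregulated genes with the smallest p encode a lipase, proteases, adhesion proteins, scavenger and lectin-like receptors and an interleukin antagonist. *Spp1* (ENSMUSG00000029304, chr5:104435118-104441050, GRCm38), which encodes the secreted adhesion protein osteopontin, had 2594, 4368 and 9637 normalized counts in the lowest, median and highest contralateral library and 87954, 257206 and 707269 in the ipsilateral ones. Every ipsilateral library was above every contralateral one, and the highest was replicate 2. The log2 fold change was 5.68 (SE 0.46, n = 6 per hemisphere, adjusted p = 5.76e-06). *Spp1* moved from rank 380 to rank 1 among genes by median level, and its share of all normalized counts went from a median of 0.035% to 2.1%.

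*Lpl*, the enzyme that releases fatty acids from lipoprotein triglycerides, ranged from 1078 over a median of 1248 to 1757 normalized counts contralaterally and from 9374 over 22982.5 to 27761 ipsilaterally (log2 fold change 3.88, SE 0.26, adjusted p = 1.43e-06). Ipsilateral replicates 5 and 6 were the lowest of their group, and the hemispheres did not overlap. *Il1rn*, which encodes the antagonist that blocks the interleukin 1 receptor, had 73, 128.5 and 205 normalized counts contralaterally and 2190, 5722.5 and 11995 ipsilaterally, a log2 fold change of 5.42 (SE 0.36, adjusted p = 1.43e-06). *Mmp12*, the macrophage metalloelastase, rose from 6, 33.5 and 60 normalized counts to 2213, 6029 and 14533, the largest log2 fold change among the genes named (7.83, SE 0.57, adjusted p = 2.81e-06). For both genes all 6 ipsilateral libraries lay above all contralateral ones.

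Of the other 8 genes with the smallest p, all of them without overlap between hemispheres, *Lgals3*, which encodes the galactose-binding lectin galectin-3, went from 164, 293 and 435 to 3309, 12815.5 and 26005 normalized counts (log2 fold change 5.13, SE 0.43, adjusted p = 6.80e-06). The membrane protease *Adam8* rose by 5.02, the lectin-like receptor *Cd72* by 4.70, the cholesterol hydroxylase *Ch25h* by 4.22, the hyaluronan receptor *Cd44* by 4.02, the matrix protein *Postn* by 3.41 and the class A scavenger receptor *Msr1* by 2.67 on the log2 scale. *Dcstamp*, a membrane protein needed for the fusion of osteoclast precursors, was listed at 0 in all 6 contralateral libraries and at 52, 102.5 and 156 in the ipsilateral ones. None of these 12 upregulated genes lost its call when any single replicate number was left out.

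**Figure D2:**
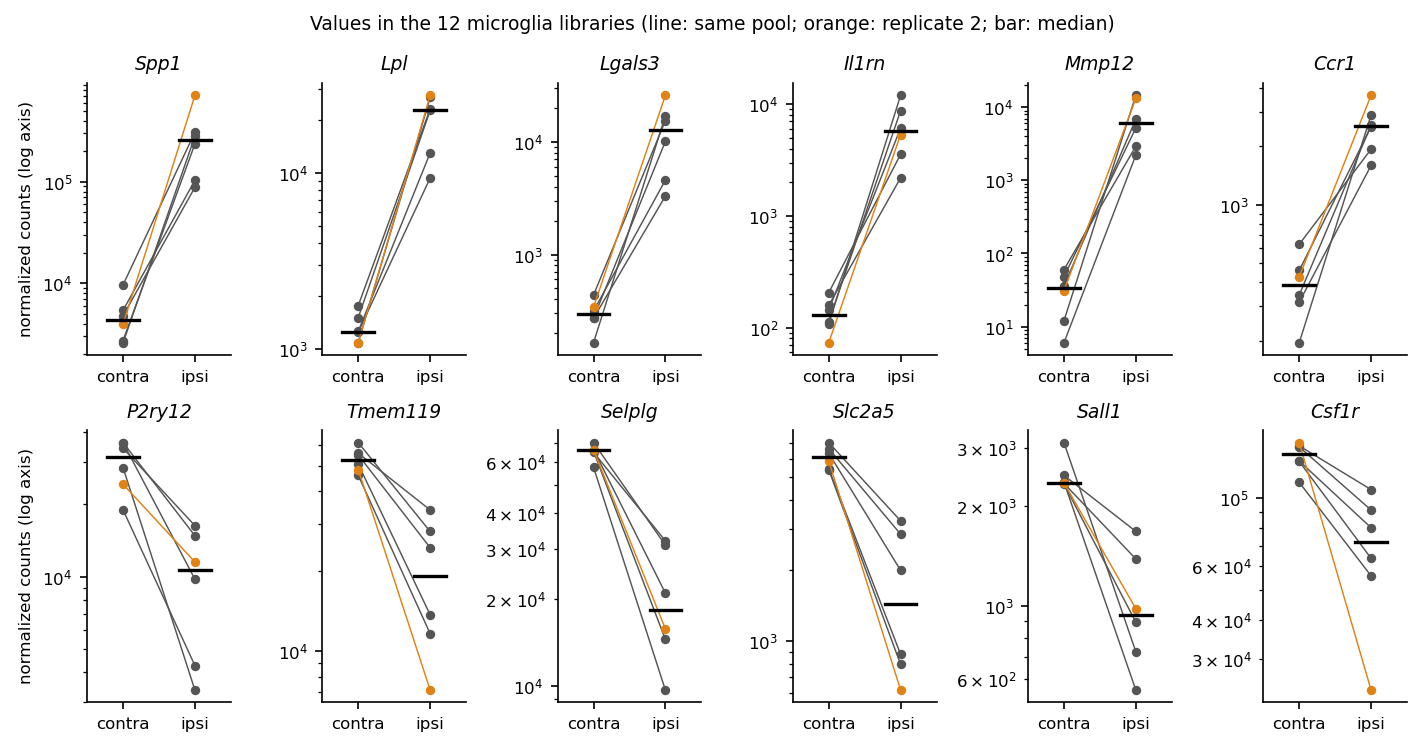
Normalized counts (y axis, log scale) of 12 genes in the 6 contralateral and 6 ipsilateral microglia libraries; each point is a library, orange marks replicate 2 and the bar is the median. Points of *Spp1*, *Lpl*, *Lgals3*, *Il1rn*, *Mmp12* and *Ccr1* are higher in every ipsilateral library, and those of *P2ry12*, *Tmem119*, *Selplg*, *Slc2a5*, *Sall1* and *Csf1r* are lower.

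The downregulated genes with the smallest p moved less far. *Pik3ip1*, an inhibitor of phosphoinositide 3-kinase, had 562, 1176.5 and 2159 normalized counts contralaterally and 50, 163 and 215 ipsilaterally, and fell by 2.98 on the log2 scale (SE 0.37, adjusted p = 2.39e-04). *Il16*, a chemoattractant cytokine, fell by 1.99, *Klhdc8b* by 1.75, *Bmf*, a pro-apoptotic BH3-only protein, by 1.71, *Tsc22d3*, the glucocorticoid-induced leucine zipper, by 1.68, the glutamate transporter *Slc1a3* by 1.62 and the ubiquitin ligase *Rnf167* by 1.61. *Zfhx3* fell by 1.39, *Fbrsl1* by 1.31, *Rcbtb2* by 1.25, the calcium channel *Itpr2* by 1.22 and *Havcr2*, which encodes the receptor TIM-3, by 1.18. No value of these 12 genes overlapped between the hemispheres, and none lost its call with a replicate number left out.

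Most genes that define resting microglia were lower. Of 24 homeostatic genes tested, 16 were downregulated (66.7%) and 0 upregulated, with a median log2 fold change of -1.02 beside -0.18 over all genes. *P2ry12*, the ADP receptor that guides microglial processes, had 18947, 31289 and 36074 normalized counts contralaterally and 3372, 10623.5 and 16293 ipsilaterally (log2 fold change -1.76, SE 0.36, adjusted p = 0.00711). *Tmem119*, a membrane protein used to tell microglia from blood-derived macrophages, had 45990, 52744 and 61086 contralaterally and 7119, 19110 and 34036 ipsilaterally (-1.60, SE 0.33, adjusted p = 0.0065). The hemispheres did not overlap for either gene, with the lowest value in ipsilateral replicate 3 for *P2ry12* and in replicate 2 for *Tmem119*. *Selplg*, the P-selectin ligand, went from 57462, 65674 and 69940 to 9691, 18412.5 and 31927 (-1.78, SE 0.27, adjusted p = 0.00124), and the fructose transporter *Slc2a5* from 5402, 6118 and 7047 to 616, 1439.5 and 3261 (-2.11, SE 0.37, adjusted p = 0.00278). Both had every ipsilateral library below every contralateral one.

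*Siglech*, a sialic acid-binding lectin, fell by 1.59 (adjusted p = 0.00158), and *Gpr34*, a receptor for lysophosphatidylserine, by 1.41 (adjusted p = 0.00585). *P2ry13* fell by 1.06 (adjusted p = 0.0161; up to 0.0609 without replicate 3 or 4), and the phagocytic receptor kinase *Mertk* by 0.97 (adjusted p = 0.0105; 0.0556 without replicate 3). *Csf1r*, the receptor for the survival factors CSF1 and IL-34, had 112570, 139426 and 151572 normalized counts contralaterally and 23680, 71845 and 106556 ipsilaterally, with the lowest value in replicate 2. Its log2 fold change was -1.10 (SE 0.32, adjusted p = 0.0375), and its adjusted p was up to 0.113 without replicate 1, 3, 4 or 6. *Tgfbr1*, a receptor chain for TGF-β, fell by 1.06 (adjusted p = 0.00279). *Cx3cr1*, the fractalkine receptor, had 47248, 64048 and 85485 against 23366, 39686.5 and 63809 normalized counts and was not called (-0.73, adjusted p = 0.0895; 0.0433 with the replicate number as a block). Without replicate 3 the list had 11 downregulated genes, and in the joint fit of 48 libraries 3. *Cd68* and *Aif1*, markers of the microglial lineage, were not called, at 0.41 (adjusted p = 0.297) and -0.47 (adjusted p = 0.292).

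Among 22 myeloid transcription factors, 6 were downregulated and 1 upregulated (median -0.64). *Sall1*, a zinc finger factor restricted to microglia among macrophages, had 2334, 2358 and 3113 normalized counts contralaterally and 556, 935.5 and 1678 ipsilaterally, without overlap (-1.36, SE 0.23, adjusted p = 0.00265). *Mef2c* fell by 0.83 (adjusted p = 0.00656). *Spi1*, which encodes the myeloid master factor PU.1, was not called (-0.19, adjusted p = 0.374), and neither was *Irf8* (-0.46, adjusted p = 0.191). The upregulated factor was *Bhlhe40*, at 1.31 (adjusted p = 0.0442; up to 0.179 without replicate 1, 3, 4, 5 or 6). Without replicate 3, 2 of these factors were downregulated, and with the replicate number as a block 9.

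The list of genes described in disease-associated microglia, a state named for its discovery near amyloid plaques, was divided. Of 29 tested, 14 were upregulated and 2 downregulated, with a median of 0.83. Beside *Spp1*, *Lpl*, *Lgals3* and *Ch25h*, the fatty acid-binding protein *Fabp5* rose by 2.65 (adjusted p = 0.00529), the growth factor *Igf1* by 2.47 (adjusted p = 0.00742; 0.0501 without replicate 3), the cathepsin regulator *Cst7* by 2.03 (adjusted p = 6.38e-04), the β-glucan receptor *Clec7a* by 1.67 (adjusted p = 0.00127) and the lysosomal protease *Ctsl* by 1.36 (adjusted p = 0.00229). *Apoe*, the lipid carrier that rises in the plaque-associated state, had 16861, 24906 and 26541 normalized counts contralaterally and 10329, 14481.5 and 20877 ipsilaterally. Its hemispheres overlapped, and it fell by 0.69 (SE 0.20, adjusted p = 0.0349; up to 0.149 without replicate 1, 3, 4, 5 or 6). *Serpine2*, a protease inhibitor, fell by 0.87 (SE 0.16, adjusted p = 0.00325). Without replicate 3 the list had 8 upregulated genes, and in the joint fit 6 upregulated and 1 downregulated.

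Of 22 genes of lipid uptake, droplets and efflux, 8 were upregulated and 2 downregulated (45.5%, median 0.45, or 0.25 without replicate 2). *Plin2*, the coat protein of lipid droplets, had 905, 1227.5 and 1381 normalized counts contralaterally and 3917, 9784.5 and 14693 ipsilaterally, without overlap (2.87, SE 0.28, adjusted p = 2.89e-05). *Hilpda*, an inhibitor of the droplet lipase, rose by 1.84 (adjusted p = 0.00203), whereas *Pnpla2*, which encodes that lipase, fell by 1.39 (adjusted p = 0.0071). *Abca1*, the cholesterol exporter, was not called (0.36, adjusted p = 0.221). By limma, 0 of 22 genes of cholesterol synthesis were called. An unadjusted p under 0.05 was found for 4 of them, beside 3725 of the 13300 genes tested. *Hmgcs1* was at -0.16 (adjusted p = 0.8) and *Sqle* at 0.95 (adjusted p = 0.119). Without replicate 2, *Sqle* was upregulated, at 1.06 (adjusted p = 0.0117).

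Part of the genes of the extracellular matrix and adhesion were upregulated. Of 32 tested, 13 were upregulated and 1 downregulated (43.8%, median 1.58, or 2.45 without replicate 2), and 11 members did not overlap between hemispheres upward. *Vim*, the intermediate filament vimentin, went from 142, 402.5 and 673 to 1009, 3792.5 and 5055 normalized counts (3.04, SE 0.42, adjusted p = 6.38e-04). *Timp1*, an inhibitor of metalloproteinases, was at 0, 5.5 and 21 contralaterally and 28, 57.5 and 210 ipsilaterally, a change that began at the floor of 3 reads (adjusted p = 0.011; 0.0527 without replicate 4). The membrane metalloproteinase *Mmp14* was not called (0.50, adjusted p = 0.318), but it was upregulated without replicate 2 (0.85, adjusted p = 0.00401). The integrin chain *Itgb3* fell by 1.18 (adjusted p = 0.0171; up to 0.0821 without replicate 3 or 4). Among 16 trophic factors, 3 were upregulated (*Igf1*, *Csf1* and *Osm*; 1 without replicate 3) and 0 downregulated, *Tgfb1* was at -0.81 (adjusted p = 0.236) and the angiogenic factor *Vegfa* at 1.46 (adjusted p = 0.0583).

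The classical proinflammatory cytokines *Il1b*, *Tnf* and *Il1a* did not pass the test. Of 22 cytokine ligands, 4 were upregulated (2 without replicate 1) and 2 downregulated (0 without replicate 3). *Il1b* had 3015, 4429 and 13451 normalized counts contralaterally and 2913, 5409 and 16584 ipsilaterally, *Tnf* had 3221, 10757 and 22900 against 6853, 11214 and 16102, and *Il1a* had 7451, 15594 and 34262 against 7348, 15783.5 and 38438. The 3 genes overlapped almost fully, with log2 fold changes of 0.05 (SE 0.45), 0.20 (SE 0.36) and -0.16 (SE 0.40) and adjusted p values of 0.951, 0.746 and 0.823. These levels were already high in the contralateral hemisphere of operated animals, after digestion and sorting, and no unoperated tissue was compared. Beside *Il1rn*, the gp130 cytokine *Osm* rose from 1298, 1817 and 3747 to 3114, 4144 and 6405 (1.16, SE 0.25, adjusted p = 0.00828), with overlap between hemispheres but a higher value in all 6 pairs. *Tnfsf9*, the ligand of 4-1BB, rose by 1.21 (adjusted p = 0.0287; up to 0.0855 without replicate 1, 3, 5 or 6) and *Csf1* by 0.83 (adjusted p = 0.0422; up to 0.159 without the same replicates). *Il15* fell by 1.5 (adjusted p = 0.0187; up to 0.1 without replicate 3 or 4) and *Clcf1*, a cytokine of the CNTF family, by 1.80 (adjusted p = 0.0165; up to 0.0918 without replicate 3 or 4).

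Of 18 chemokine ligands, 11 were upregulated and 0 downregulated (61.1%, median 1.41). *Ccl2*, which draws monocytes through CCR2, went from 760, 1117.5 and 1676 to 2599, 3088 and 13327 normalized counts (1.84, SE 0.34, adjusted p = 0.00395). *Ccl12*, a further CCR2 ligand of mice, went from 3753, 4626 and 6412 to 12722, 14642.5 and 44336 (1.87, SE 0.27, adjusted p = 7.87e-04), and *Ccl5* from 33, 49.5 and 77 to 96, 333 and 1146 (2.55, SE 0.52, adjusted p = 0.0065). The hemispheres did not overlap for any of the 3. *Cxcl3*, a neutrophil attractant acting on CXCR2, was at 0, 8 and 15 contralaterally, at or near the floor, and at 104, 405.5 and 1047 ipsilaterally (5.78, SE 0.71, adjusted p = 2.39e-04). Its relatives *Cxcl1* and *Cxcl2* rose by 1.71 (adjusted p = 0.0202; up to 0.0758 without replicate 3 or 4) and 1.30 (adjusted p = 0.0422; up to 0.137 without replicate 1, 2, 3 or 6). *Ccl3* and *Ccl4*, attractants of leukocytes, had contralateral medians of 19194.5 and 51150.5, overlapped between hemispheres and were not called (0.20, adjusted p = 0.769, and 0.54, adjusted p = 0.39). Between 6 (without replicate 3) and 9 chemokines were upregulated with a replicate number left out, and 2 in the joint fit of 48 libraries.

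The promoters of the CXCR2 ligands are shown because all 3 hold the κB letters GGNNTTTCC, searched on both strands and capitalized here, as did 5 of the 7 upregulated chemokine genes with a single promoter window. These letters were found in 6.43% of the promoters of 7635 tested genes, and a match is a description and not a binding site. The sequences are those of RefSeq on GRCm38.p6, 250 bases before to 50 after the start, for *Cxcl1* (chr5:90890995-90891294, plus strand), *Cxcl2* (chr5:90903649-90903948, plus strand) and *Cxcl3* (chr5:90785851-90786150, plus strand).
Cxcl1: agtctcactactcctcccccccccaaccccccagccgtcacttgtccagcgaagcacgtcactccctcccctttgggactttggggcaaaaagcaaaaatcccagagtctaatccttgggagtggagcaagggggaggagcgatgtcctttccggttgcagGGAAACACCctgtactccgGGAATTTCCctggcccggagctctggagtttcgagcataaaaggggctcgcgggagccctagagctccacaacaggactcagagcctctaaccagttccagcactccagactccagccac
Cxcl2: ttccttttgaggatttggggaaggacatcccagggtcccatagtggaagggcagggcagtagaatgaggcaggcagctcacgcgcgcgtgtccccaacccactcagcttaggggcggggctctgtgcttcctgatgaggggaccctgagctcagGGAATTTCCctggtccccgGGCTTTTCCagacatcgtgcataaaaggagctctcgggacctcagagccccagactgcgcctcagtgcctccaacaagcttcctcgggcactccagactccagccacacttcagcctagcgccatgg
Cxcl3: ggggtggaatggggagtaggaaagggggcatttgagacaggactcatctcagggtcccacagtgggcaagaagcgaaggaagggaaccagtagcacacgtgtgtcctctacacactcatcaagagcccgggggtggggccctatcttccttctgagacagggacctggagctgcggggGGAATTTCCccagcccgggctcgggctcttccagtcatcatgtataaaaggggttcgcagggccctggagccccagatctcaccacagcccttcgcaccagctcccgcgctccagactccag

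Receptors for these signals moved in both directions, 5 up and 5 down of 33 tested (30.3%). *Ccr1*, a receptor for inflammatory CC chemokines, had 195, 384.5 and 625 normalized counts contralaterally and 1591, 2538 and 3648 ipsilaterally, without overlap (2.71, SE 0.27, adjusted p = 3.29e-05). *Fpr1*, a receptor for formylated peptides of bacteria and mitochondria, rose from 0, 10 and 37 to 79, 149.5 and 204 (4.46, SE 0.84, adjusted p = 0.00408), and *Il2rg*, the common cytokine receptor chain, by 2.31 (adjusted p = 0.00143). The anaphylatoxin receptors *C3ar1* and *C5ar1* rose by 0.85 (adjusted p = 0.00591) and 0.71 (adjusted p = 0.0102; 0.0506 without replicate 3). *Il6ra* fell by 1.70 (adjusted p = 0.00261), *Il10ra*, the receptor of the anti-inflammatory IL-10, by 1.58 (adjusted p = 0.0067), and *Ifngr1* by 0.87 (adjusted p = 0.00394), all without overlap between hemispheres. *Il1r1* and *Tnfrsf1a* were not called, at -0.53 (adjusted p = 0.75) and -0.18 (adjusted p = 0.503).

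Of 38 genes of pattern recognition and NF-κB signaling, 3 were upregulated and 2 downregulated (13.2%, near the 10.6% of all genes), 5 and 1 without replicate 2, and 1 was upregulated without replicate 3. *Cd14*, the co-receptor for bacterial lipopolysaccharide, went from 21561, 34498 and 55889 to 72121, 122924 and 210193 normalized counts, without overlap (1.80, SE 0.30, adjusted p = 0.00229), and was the gene with the fifth-highest ipsilateral median. *Clec4e*, a lectin that senses dead cells, was at 0, 46 and 71 contralaterally and 151, 220 and 261 ipsilaterally (adjusted p = 0.0264; up to 0.0977 without replicate 3, 4 or 6). *Tlr1* rose by 0.85 (adjusted p = 0.0148; up to 0.0655 without replicate 1, 3 or 6). *Nfkb1* fell by 1.07 (adjusted p = 0.00711), and the endosomal receptor *Tlr7* by 0.72 (adjusted p = 0.0392; 0.0607 with the replicate block and up to 0.113 without replicate 3, 4, 5 or 6). *Tlr4*, *Tlr2* and *Nfkbia* were not called, at -0.62, 0.64 and -0.08 (adjusted p = 0.3, 0.118 and 0.881). Without replicate 2, *Tlr2* was upregulated, at 0.87 (adjusted p = 0.014).

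Interferon-stimulated genes were partly higher. Of 30 tested, 10 were upregulated and 0 downregulated (33.3%, median 0.95). *Rsad2*, the antiviral enzyme viperin, had 19, 64.5 and 117 normalized counts contralaterally and 251, 502 and 883 ipsilaterally, without overlap (3.15, SE 0.44, adjusted p = 6.38e-04). *Cmpk2*, a neighboring nucleotide kinase gene, rose by 1.72 (adjusted p = 0.0442) and lost its call with any replicate number left out (up to 0.169). *Ifit1* rose by 1.51 (adjusted p = 0.0156; up to 0.0802 without replicate 3, 4 or 6), *Isg15* by 1.51 (adjusted p = 0.0457; up to 0.183 without replicate 1, 2, 3, 4 or 5, and 0.0825 with the replicate block) and *Irf7* by 1.18 (adjusted p = 0.0491; up to 0.196 without replicate 1, 3, 4, 5 or 6). *Ifit3* was not called (0.84, adjusted p = 0.208). The list had 4 upregulated genes without replicate 3, 7 without replicate 2 and 3 in the joint fit.

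Both interferon-stimulated promoters printed here hold 3 partly overlapping matches to the letters GAAANNGAA on either strand, which were found in 4 of the 8 upregulated list members with a single window and in 7.43% of all promoters. They are *Isg15* (chr4:156200769-156201068, minus strand) and *Ifit1* (chr19:34640639-34640938, plus strand) of GRCm38.p6, from RefSeq, with the matches in capitals.
Isg15: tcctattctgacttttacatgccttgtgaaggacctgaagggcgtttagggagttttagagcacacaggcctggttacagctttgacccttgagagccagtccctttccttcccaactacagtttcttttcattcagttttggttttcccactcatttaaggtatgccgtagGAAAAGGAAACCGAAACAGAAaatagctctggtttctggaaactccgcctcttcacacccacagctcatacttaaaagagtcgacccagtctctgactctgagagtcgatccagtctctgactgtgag
Ifit1: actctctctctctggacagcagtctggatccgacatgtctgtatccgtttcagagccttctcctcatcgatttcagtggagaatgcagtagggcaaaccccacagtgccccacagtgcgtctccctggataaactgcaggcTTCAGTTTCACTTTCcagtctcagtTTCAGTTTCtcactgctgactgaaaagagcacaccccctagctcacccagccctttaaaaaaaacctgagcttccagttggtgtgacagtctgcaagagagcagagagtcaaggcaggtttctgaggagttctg

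By limma, 0 of 18 genes of MHC antigen presentation were called, and 2 were downregulated without replicate 2. An unadjusted p under 0.05 was found for 4 of the 18, beside 3725 of the 13300 genes tested. *H2-Aa* was at 0.54 (adjusted p = 0.454), *H2-Ab1* at 0.53 (adjusted p = 0.239) and *H2-K1* at -0.03 (adjusted p = 0.933). Of 17 genes of complement and Fc receptors, 3 were upregulated and 0 downregulated (17.6%, beside 10.6% of all genes), the anaphylatoxin receptors and *Fcgr4*, an activating IgG receptor that rose by 1.18 (adjusted p = 0.00309). *C1qa* had 49499, 54675 and 61579 normalized counts contralaterally and 27231, 36288 and 49498 ipsilaterally, which did not overlap, and was not called (-0.58, adjusted p = 0.0551). *C1qb* was at -0.27 (adjusted p = 0.519) and *C3*, near 50 normalized counts in both medians (48.5 and 54), at -0.65 (adjusted p = 0.675).

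Receptors for debris and apoptotic cells moved in both directions. Of 22 phagocytic and scavenger receptors, 5 were upregulated and 4 downregulated. Among the 5 upregulated receptors, *Cd36* went from 36, 113.5 and 209 to 563, 1003 and 2151 normalized counts (3.32, SE 0.41, adjusted p = 2.41e-04), and *Marco* from 0, 0 and 7 to 29, 154.5 and 404 (adjusted p = 5.63e-04), both without overlap, beside *Msr1*. Of the 22, 13 were not called, other scavenger receptors among them. *Cd93* rose by 2.35 (adjusted p = 0.0114; up to 0.0666 without replicate 3 or 4). *Mertk*, *Havcr2* and *Gpr34* fell, as did the inhibitory receptor *Cd300a*, by 0.84 (adjusted p = 0.00163). Of 12 purinergic receptors and ectonucleotidases, 4 were downregulated, 1 was upregulated and 7 were not called, and the list median went from -0.48 to 0.05 without replicate 2. Beside *P2ry12* and *P2ry13*, the ATP-gated channel *P2rx7* fell by 0.94 (adjusted p = 0.00167) and the ectonucleotidase *Entpd1* (CD39) went from 8085, 9664.5 and 11764 to 1929, 3445 and 4857 normalized counts (-1.58, SE 0.23, adjusted p = 0.00101). *P2ry2*, a receptor for ATP and UTP, rose by 1.23 (adjusted p = 0.00287), and *P2ry6*, the UDP receptor linked to phagocytosis, was not called (-0.51, adjusted p = 0.452).

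Some glycolytic enzymes were higher after stroke. Of 32 genes of the hypoxia response and glycolysis, 9 were upregulated, 2 downregulated and 21 not called (34.4% called, median 0.42). *Ldha*, which makes lactate, had 4814, 5559 and 6219 normalized counts contralaterally and 11125, 13216.5 and 15307 ipsilaterally (1.26, SE 0.14, adjusted p = 8.76e-05). *Pkm* went from 4338, 4575 and 5127 to 9035, 20223 and 29974 (2.02, SE 0.24, adjusted p = 1.73e-04), and *Pgk1* from 402, 430.5 and 477 to 1070, 1278.5 and 2150 (1.66, SE 0.18, adjusted p = 8.30e-05). For all 3 the lowest ipsilateral library was above the highest contralateral one. *Gapdh* rose by 1.22 (adjusted p = 1.26e-04) and *Tpi1* by 1.24 (adjusted p = 3.05e-04). *Ddit4*, a stress-induced inhibitor of mTOR, fell by 2.52 (adjusted p = 0.00828), and *Pdk1*, which restrains pyruvate entry into mitochondria, by 0.74 (adjusted p = 0.0285; up to 0.11 without replicate 1, 3 or 4). *Hif1a* and *Slc2a1*, the glucose transporter GLUT1, were not called, at 0.45 (adjusted p = 0.0803) and 0.22 (adjusted p = 0.643). In the deposited KEGG group of glycolysis and gluconeogenesis, 9 of 42 were upregulated and 1 downregulated (23.8%, median 0.23; 3 downregulated without replicate 2), *Ldhb*, at -0.85 (adjusted p = 0.0303; up to 0.134 without replicate 1, 3, 4, 5 or 6).

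The promoter of *Pgk1* (chrX:106186850-106187149, plus strand, GRCm38.p6, RefSeq) is shown with its 2 matches to the core of the hypoxia-response element, ACGTG on either strand, in capitals. This short core was found in 26.2% of all promoters and in 4 of 5 upregulated list members with a single window.
Pgk1: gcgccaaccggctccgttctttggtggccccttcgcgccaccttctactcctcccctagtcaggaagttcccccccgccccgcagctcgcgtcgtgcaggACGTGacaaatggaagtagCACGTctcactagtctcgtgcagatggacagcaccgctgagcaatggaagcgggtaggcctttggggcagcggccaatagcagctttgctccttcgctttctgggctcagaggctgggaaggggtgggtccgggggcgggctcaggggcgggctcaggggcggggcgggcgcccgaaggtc

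Antioxidant and iron genes formed one of the lists with most calls. Of 28 tested, 15 were upregulated and 2 downregulated (60.7%, median 1.15), and 9 were upregulated without replicate 1. *Slc7a11*, which imports cystine for glutathione synthesis, had 65, 130.5 and 398 normalized counts contralaterally and 755, 1679 and 2490 ipsilaterally (3.42, SE 0.39, adjusted p = 1.45e-04). *Srxn1*, which repairs oxidized peroxiredoxins, went from 108, 225 and 339 to 846, 1489 and 3537 (2.97, SE 0.35, adjusted p = 1.71e-04), and *Hmox1*, the heme-degrading enzyme, from 1424, 1974 and 2666 to 3727, 6186 and 11481 (1.78, SE 0.25, adjusted p = 8.31e-04). No value overlapped between hemispheres for these 3 genes. *Cybb*, the catalytic subunit of the phagocyte NADPH oxidase, rose by 2.33 (adjusted p = 5.75e-05), whereas its cytosolic partner *Ncf1* fell by 0.86 (adjusted p = 0.0345; up to 0.138 without replicate 1, 3, 4 or 6). *Fth1*, the ferritin heavy chain, went from 43433, 58440.5 and 69933 to 104325, 246802 and 663556 (1.99, SE 0.40, adjusted p = 0.00573), and the iron exporter *Slc40a1* fell by 1.43 (adjusted p = 0.00881). *Mt1* was not called (1.27, adjusted p = 0.0958) but had a higher value in all 6 pairs and an adjusted p of 0.00967 with the replicate block, and its relative *Mt2* rose by 2.52 (adjusted p = 0.0122; up to 0.0592 without replicate 1, 3 or 4). *Nqo1*, at medians of 6.5 and 28 normalized counts, was not called (adjusted p = 0.648).

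The letters TGACNNNGC, the core of the antioxidant-response element, were found in 4 of the 9 upregulated members with a single window and in 15% of all promoters. Those of *Srxn1* (chr2:152105274-152105573, plus strand) and *Gclm* (chr3:122245307-122245606, plus strand), which encodes a subunit of the enzyme that begins glutathione synthesis and rose by 1.86 (adjusted p = 0.00287), are shown from RefSeq on GRCm38.p6 with the match in capitals.
Srxn1: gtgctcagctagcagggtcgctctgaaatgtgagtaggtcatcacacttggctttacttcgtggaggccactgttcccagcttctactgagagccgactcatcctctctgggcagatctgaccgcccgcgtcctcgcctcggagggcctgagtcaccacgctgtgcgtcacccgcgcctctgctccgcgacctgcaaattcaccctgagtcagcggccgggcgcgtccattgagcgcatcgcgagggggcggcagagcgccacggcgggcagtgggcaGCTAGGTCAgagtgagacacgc
Gclm: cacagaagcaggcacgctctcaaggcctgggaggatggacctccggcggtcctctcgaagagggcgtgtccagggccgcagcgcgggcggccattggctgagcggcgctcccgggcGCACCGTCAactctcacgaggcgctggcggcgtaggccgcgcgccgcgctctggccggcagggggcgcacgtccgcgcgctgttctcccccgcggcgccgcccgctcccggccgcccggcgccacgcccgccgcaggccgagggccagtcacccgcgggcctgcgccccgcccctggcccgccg

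Most proteasome genes were higher. Of 43 proteasome genes, 27 were upregulated and 0 downregulated (62.8%, median 0.87), and 24 did not overlap between hemispheres. *Psmd14*, a deubiquitinase of the proteasome lid, went from 827, 1056.5 and 1497 to 2064, 2853.5 and 5171 normalized counts (1.43, SE 0.22, adjusted p = 0.00146), and *Psmb6*, a catalytic subunit, rose by 1.32 (adjusted p = 0.0122; 0.0567 without replicate 4). The count was 10 without replicate 3, 28 without replicate 2 and 29 in the joint fit. Of 127 ribosomal genes, 7 were upregulated (5.51%, median 0.53, or 0.30 without replicate 2), among them *Rpsa*, at 0.99 (adjusted p = 0.0105; 0.0592 without replicate 3), and *Rps2*, at 0.96 (adjusted p = 0.018; up to 0.0788 without replicate 1, 3 or 4). The ribosomal count was 18 with the replicate block and 0 without replicate 3. Among all genes tested, 4.29% were upregulated and 10.6% were called in either direction. Of 108 genes of oxidative phosphorylation, 8 were upregulated (7.41%, median 0.55, or 0.32 without replicate 2), 14 with the replicate block and 2 without replicate 1; *Ppa1*, an inorganic pyrophosphatase in that group, rose by 1.70 (adjusted p = 0.00121) and the complex I subunit *Ndufa12* by 1.14 (adjusted p = 0.0383; up to 0.138 without replicate 1, 3, 4, 5 or 6).

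The endolysosomal groups held calls in both directions. Of 109 lysosome genes, 12 were upregulated and 13 downregulated (22.9%, beside 10.6% of all genes). *Igf2r*, the receptor that delivers enzymes to lysosomes, went from 0, 18.5 and 35 to 145, 271 and 618 normalized counts, without overlap (4.69, SE 0.79, adjusted p = 0.00229), and the protease *Napsa* rose by 3.59 (adjusted p = 0.0236; up to 0.111 without replicate 3, 4 or 5). Of 122 phagosome genes, 24 were upregulated and 7 downregulated (25.4%), and of 222 endocytosis genes 13 and 17 (13.5%, near the share of all genes). *Rab7b*, a small GTPase of late endosomes, rose by 3.54 (adjusted p = 3.33e-05), and *H2-M2*, a nonclassical class I gene, from 0, 11 and 28 to 36, 118 and 208 normalized counts (adjusted p = 0.00794). Without replicate 3, 5 lysosome genes were upregulated and 5 downregulated and 5 endocytosis genes were upregulated, and without replicate 4 downregulated were 2 phagosome and 7 endocytosis genes.

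Some early-response transcription factors were lower than in the contralateral hemisphere. Of 20 tested, 5 were downregulated and 1 upregulated (median -0.88). *Jun* had 37033, 51767 and 116961 normalized counts contralaterally and 6818, 18600 and 29792 ipsilaterally, without overlap (-1.70, SE 0.34, adjusted p = 0.0057). *Egr1* fell by 1.29 (adjusted p = 0.0163; up to 0.0757 without replicate 3 or 4), *Fos* by 0.86 (adjusted p = 0.0299; up to 0.121 without replicate 1, 3, 4, 5 or 6), *Fosb* by 1.55 (adjusted p = 0.0318; up to 0.141 without replicate 1, 3, 4 or 6) and *Egr3* by 2.81 (adjusted p = 0.0493; up to 0.162 without the same replicates). *Fosl1* rose by 1.40 (adjusted p = 0.0472; up to 0.155 without replicate 1, 3, 4, 5 or 6). The count of downregulated genes was 8 with the replicate block and 1 without replicate 3. The cells were digested and sorted before lysis, steps that were the same for both hemispheres, and the part of digestion in these levels was not tested.

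Of 25 genes of the unfolded protein and heat shock responses, 4 were upregulated and 0 downregulated (16%, beside 10.6% of all genes): *Trib3* (0, 31.5 and 71 against 172, 235 and 520 normalized counts, adjusted p = 0.0108; up to 0.0652 without replicate 3 or 4), the asparagine synthetase *Asns* (2.29, adjusted p = 0.00126), the mitochondrial chaperone *Hspd1* (0.79, adjusted p = 0.00274) and *Sdf2l1* (0.62, adjusted p = 0.0281; up to 0.0998 without replicate 1, 3, 4 or 5). *Hspa5* and *Ddit3* were not called (adjusted p = 0.324 and 0.831), and *Hspa1a*, which has a near-identical copy, was called lower with the replicate block (adjusted p = 0.0182) but not without it (-1.22, adjusted p = 0.0591). With the block 5 genes of this list were downregulated, and without replicate 3, 2 were upregulated. Of 24 p53 and cell death genes, 2 were upregulated and 3 downregulated (20.8%; as few as 1 upregulated and 1 downregulated with a replicate number left out). *Ripk3*, a kinase of necroptosis, rose from 105, 207 and 236 to 430, 660.5 and 837 (1.81, SE 0.26, adjusted p = 9.40e-04), and the cell cycle inhibitor *Cdkn1a* by 0.94 (adjusted p = 0.0416; up to 0.111 without replicate 1, 2, 3, 4 or 6). *Sesn1* fell by 1.75 (adjusted p = 0.00267), *Trp53inp1* by 1.74 (adjusted p = 0.0147; up to 0.063 without replicate 1 or 5) and *Bbc3* by 1.84 (adjusted p = 0.0491; 0.0527 with the replicate block, up to 0.159 without replicate 1, 3, 4, 5 or 6), while *Mdm2* and *Trp53* were not called (adjusted p = 0.863 and 0.756).

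The proliferation markers *Mki67*, *Top2a* and *Cdk1* had ipsilateral medians of 9.5, 14 and 109.5 normalized counts beside contralateral medians of 3.5, 15 and 69, and none was called (adjusted p = 0.953, 0.71 and 0.867). Of 31 cell cycle genes, 3 were upregulated (9.68%, near the share of all genes), *Cdkn1a*, *Ccnd2* (1.27, adjusted p = 0.0322; up to 0.0942 without replicate 1, 4, 5 or 6) and *Cdt1* (0.83, adjusted p = 0.0402; 0.0731 with the replicate block and up to 0.173 without replicate 3, 4, 5 or 6), 6 without replicate 2 and 0 without replicate 4. Of the 111 genes of the KEGG cell cycle group, 7 were upregulated (1 without replicate 4) and 4 downregulated (7 without replicate 2 and 1 without replicate 3), 9.91% in all. The latter were *Abl1* (-1.11), *Cdkn1c* (-1.09; adjusted p up to 0.0977 without replicate 1, 3, 4, 5 or 6), *Crebbp* (-0.78; up to 0.0808 without the same replicates) and *Ep300* (-0.70; up to 0.113 without replicate 3, 5 or 6). *Orc1*, a subunit of the origin recognition complex, was 0, 4.5 and 10 contralaterally and 25, 35.5 and 88 ipsilaterally (adjusted p = 0.00805). Of 35 genes of DNA replication 1 was upregulated (4 with the replicate block, 6 without replicate 2). Of 125 of the spliceosome 2 were upregulated, *Snrpa1* (1.34) and *Hnrnpa1* (0.80), with 4 under the replicate block and 4 without replicate 2. In that group 3 were downregulated (*Prpf38b*, -0.95, *Ddx5*, -0.65, and *Slu7*, -0.62). These last 3 calls were all lost without replicate 3, 4 or 5, and also without replicate 1 (*Ddx5* and *Slu7*) or 6 (*Prpf38b* and *Ddx5*), with adjusted p values up to 0.185, 0.185 and 0.124. The shares called in the groups of DNA replication and spliceosome, 2.86% and 4%, were below the 10.6% of all genes. Of 12 ion channels, 3 were downregulated and 1 upregulated. *Trpm2* fell by 1.80 (adjusted p = 0.00377), *Kcnk6* by 1.07 (adjusted p = 0.00385) and *Trpv4*, at -2.56, or -1.65 without replicate 2, was lower too (adjusted p = 0.0462; up to 0.122 without replicate 1, 3, 4, 5 or 6), *Clic4* rose by 1.5 (adjusted p = 0.0042), and *Kcnk13*, the resting potassium channel THIK-1, was not called (0.35, adjusted p = 0.276).

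**Figure D3:**
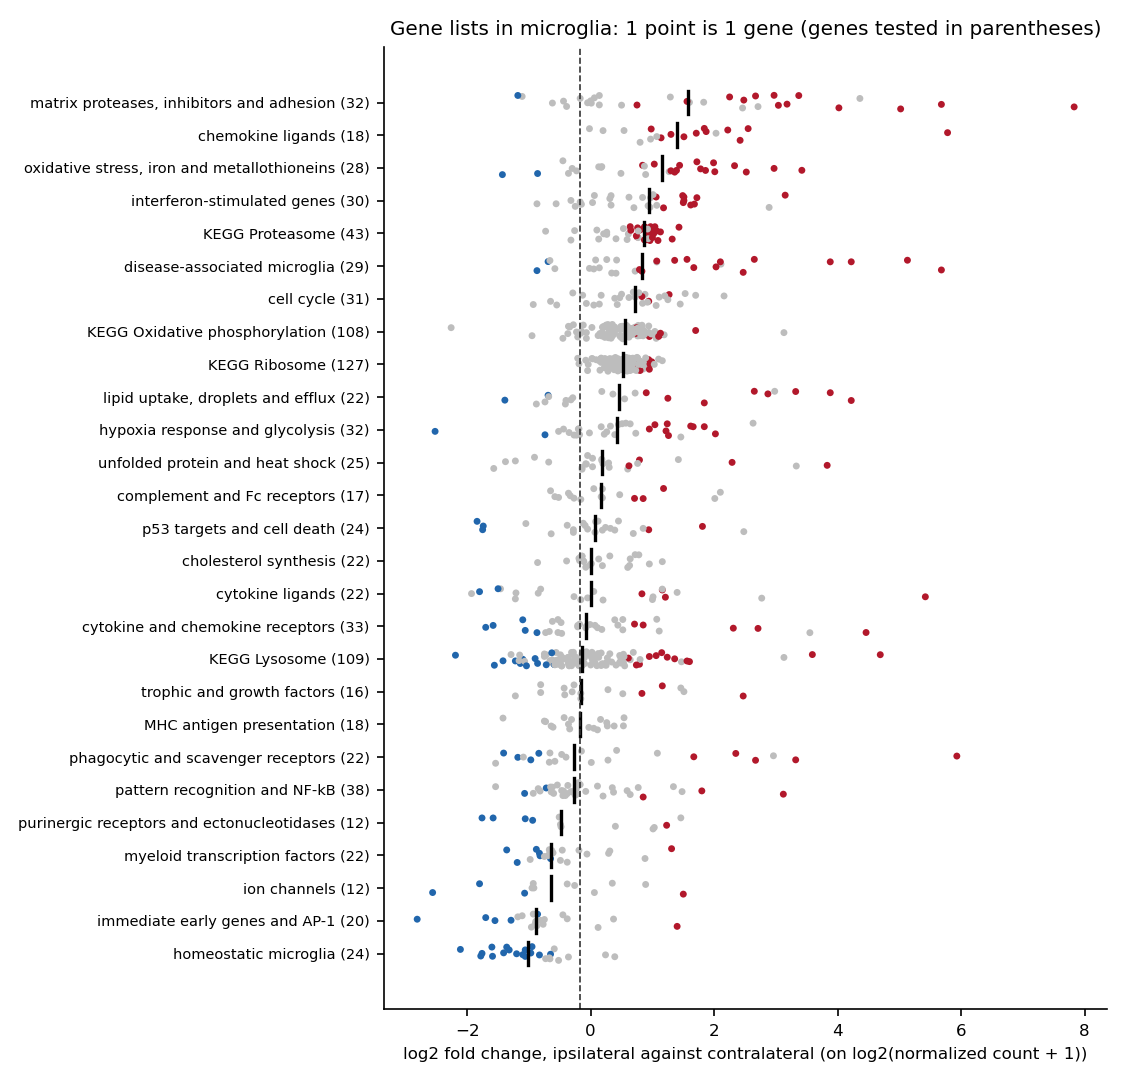
Log2 fold change (x axis, ipsilateral minus contralateral) of every tested gene of each list (rows); red points were called up, blue points called down and grey points not called, the black bar is the list median and the dashed line the median of all genes (-0.18). Homeostatic genes lie left of the line (median -1.02), and matrix, chemokine and antioxidant genes right of it (1.58, 1.41 and 1.15).

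Markers of other cells were low but not absent, and those of blood leukocytes moved with stroke. The sum of 9 monocyte markers was 280 to 1485 normalized counts contralaterally and 1810 to 4623 ipsilaterally, higher in all 6 pairs, and 4 of 9 were upregulated: *Hp* (3.27, adjusted p = 0.00158), *Vcan* (0, 3.5 and 23 against 14, 76 and 133 normalized counts, adjusted p = 0.0175; up to 0.0969 without replicate 3 or 4), *Chil3* (2.75, adjusted p = 0.008; 0.0501 without replicate 3) and *Plac8* (2.33, adjusted p = 0.0176; up to 0.0929 without replicate 3 or 4). *Ccr2*, the chemokine receptor of classical monocytes, had 31, 51.5 and 110 contralaterally and 57, 138.5 and 251 ipsilaterally and was not called (1.33, adjusted p = 0.0591). The sum of neutrophil markers was 6423 to 8044 contralaterally and 4388 to 7086 ipsilaterally, except 19569 in ipsilateral replicate 2. Most of the contralateral sum was *Csf3r*, with a median of 6797 beside 7260.5 for the sum, so that a lower sum does not mean that the other markers were lower. *Cxcr2*, *Mmp8*, *Ngp*, *Camp* and *Ltf* were not called, with fold changes of 1.01 to 2.46. Within that list *S100a8* (3.35, adjusted p = 0.0122; 0.0623 without replicate 3), *S100a9* (3.26, adjusted p = 0.00356) and *Retnlg* (3.36, adjusted p = 0.0145; up to 0.0756 without replicate 3 or 4) rose and *Csf3r*, which microglia also express, fell by 1.77 (adjusted p = 0.00235). *S100a8* reached 9831 normalized counts in ipsilateral replicate 2, and the defining neutrophil marker *Ly6g* was 0 to 6 in all 12 libraries.

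The sum of border-associated macrophage markers was 436 to 1837 contralaterally and 762 to 4425 ipsilaterally, with 0 of 9 called by limma and 1 with an unadjusted p under 0.05, *Pf4*, which was called with the replicate block (2.03, adjusted p = 0.0852 without and 0.0116 with it). *Mrc1* was at 0.12 (adjusted p = 0.871). Erythroid markers summed to 904 to 11360 contralaterally and 2666 to 14696 ipsilaterally, and *Hba-a1* was called with the block (0.83, adjusted p = 0.377 without and 0.0455 with it). Markers of dendritic cells, endothelial cells, pericytes, neurons and oligodendrocytes had 0 calls by limma and 0 with an unadjusted p under 0.05. Lymphocyte markers summed to at most 58 with *Ms4a1* at 0. The astrocyte sum was lower ipsilaterally (1452 to 3161 against 3174 to 4683) with *Slc1a3* as its 1 called member. Most of the contralateral astrocyte sum was *Slc1a3*, with a median of 2868 beside 3811 for the sum. The other astrocyte markers had fold changes of -0.49 to 0.64. The part of monocyte or neutrophil RNA in the changes of scavenger, matrix or chemokine genes was not tested. Without replicate 2 the microglial calls included 15 of 29 disease-associated genes, 17 of 32 matrix genes and 9 of 18 chemokines as upregulated and 17 of 24 homeostatic genes as downregulated.

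**Figure D4:**
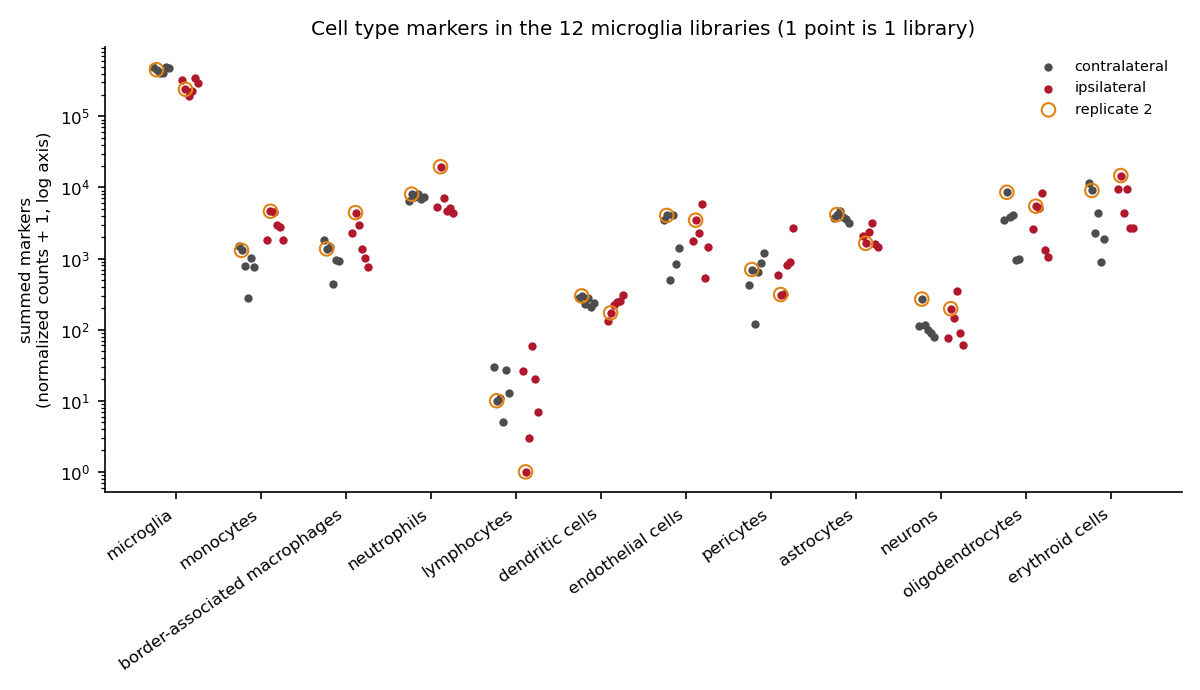
Summed normalized counts (log scale) of marker lists of each cell type in the 6 contralateral and 6 ipsilateral microglia libraries; each point is a library and an orange ring marks replicate 2. Microglia markers exceed those of every other cell type in all 12 libraries, monocyte sums are higher in every ipsilateral library (1810 to 4623 against 280 to 1485), and neutrophil sums are highest in ipsilateral replicate 2.

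Each pair was also compared with genes chosen without it. Genes upregulated in a fit of the other 5 pairs were higher ipsilaterally in the pair left out for 77.1% of 726 genes when pair 2 was left out and for 94% to 99.6% with any other pair. Downregulated genes were lower for 80.6% of 1180 genes in pair 2 and for 93.1% to 98.8% in the others. Over all genes tested, 42.3% to 45.6% were higher in a pair.

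The stroke effect in microglia was then set against the mean effect in endothelial cells, pericytes and astrocytes of the same brains, by limma over all 48 libraries. It differed for 153 of 13300 genes (1.15%), with 59 higher (0.444%) and 94 lower (0.707%) in microglia, and 110 of the 153 were also regulated in microglia. With the replicate block the count was 237, and without replicate 3, 4 or 6 it was 51, 44 or 91. Of the 153, 37 had a median of at most 10 normalized counts in every group of the other cell types, 4 of them higher and 33 lower. The highest differences were *Dcstamp* (4.72, SE 0.96, adjusted p = 0.00462), *Igf2r* (4.43, SE 0.72, adjusted p = 3.10e-04), *Pld5* (4.37, SE 1.10, adjusted p = 0.0326; up to 0.166 with a replicate number left out), *Marco* (4.32, SE 1.12, adjusted p = 0.04; up to 0.148) and the adaptor *Bcar3* (4.17, SE 0.61, adjusted p = 4.98e-05). Like *Dcstamp*, *Pld5* was listed at 0 in all 6 contralateral microglia libraries, and it had 3, 33 and 66 normalized counts ipsilaterally, so that the fitted difference depends on the pseudocount. In the other cell types the medians of *Dcstamp* and *Marco* were at most 13 and 1.5 normalized counts. *Igf2r* was present in the other cell types, at medians of 178.5 to 379.5, where its effect was 0.66 in endothelial cells, 0.02 in pericytes and 0.08 in astrocytes, against 4.69 in microglia.

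The lowest differences were *Sh2d5* (-5.27, SE 0.98, adjusted p = 0.00156; up to 0.0555 with a replicate number left out), *Angptl7* (-4.81, SE 1.18, adjusted p = 0.0258; up to 0.209), the steroid sulfate transporter *Slc10a6* (-4.51, SE 0.68, adjusted p = 8.31e-05), *Egr3* (-4.18, SE 1.10, adjusted p = 0.0424; up to 0.209) and *Ebf3* (-4.01, SE 0.99, adjusted p = 0.0258; up to 0.148). The fitted effects of *Slc10a6* had opposite signs, -2.19 in microglia against 1.86, 1.26 and 3.83 in endothelial cells, pericytes and astrocytes. *Angptl7*, a secreted angiopoietin-like protein, had 43, 114.5 and 183 normalized counts contralaterally and 0, 4.5 and 20 ipsilaterally in microglia. The effects of *Sh2d5* were -2.01 in microglia and 5.74, 1.64 and 2.42 in endothelial cells, pericytes and astrocytes. Its contralateral medians were 0 in endothelial cells and pericytes. The medians of *Ebf3* in the other cell types were 0 to 11.5, so that both fitted differences depend on the pseudocount.

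By group, 6 of 32 genes of hypoxia response and glycolysis had a higher effect in microglia: *Ldha*, *Pgk1*, *Tpi1*, *Pgam1*, *Pkm* and *P4ha2*. The effect of 1, *Ddit4*, was lower, at -2.52 against -0.22, 0.66 and -0.64 in endothelial cells, pericytes and astrocytes. With a replicate number left out, the adjusted p of the difference reached 0.209 for *Ldha*, 0.166 for *Pgam1*, 0.136 for *P4ha2* and 0.0574 for *Ddit4*. *Pkm* changed by 2.02 in microglia and by 1.08, 0.63 and 0.21 in endothelial cells, pericytes and astrocytes, a difference of 1.38 (SE 0.26, adjusted p = 0.0021). *Pgk1* changed by 1.66 against 0.99, 0.43 and 0.01, a difference of 1.18 (SE 0.21, adjusted p = 0.00112). Of 20 early-response factors, 4 were lower (*Jun*, *Egr1*, *Egr3* and *Myc*), *Jun* with a difference of -1.64 (SE 0.36, adjusted p = 0.0103). None of these 4 kept its call in every fit with a replicate number left out, with an adjusted p up to 0.109, 0.182, 0.209 and 0.178. *Rsad2* had a difference of 2.92 (SE 0.55, adjusted p = 0.00162). Among disease-associated genes, 0 of 29 differed by limma. An unadjusted p under 0.05 for the difference was found for 2 of them, beside 1966 of all 13300 genes. *Spp1*, which rose by 5.68 in microglia, had effects of 3.96, 2.61 and 3.38 in the others, a difference of 2.37 (SE 1.20, adjusted p = 0.351). Among the 24 homeostatic genes 1 differed, *Tgfbr1* (-1.39, SE 0.32, adjusted p = 0.013; up to 0.122 with a replicate number left out). The median difference of that list was -1.35, beside -0.19 over all genes, and 6 of the 24 had an unadjusted p under 0.05 by limma. Single differences in that list were imprecise, with an SE of 1.61 for *P2ry12* and 1.83 for *Selplg*. The medians of *P2ry12* were 169.5 to 505.5 normalized counts in the other cell types, beside 31289 and 10623.5 in microglia. Summed microglia markers ranged from 722 to 56948 in the ipsilateral pericyte libraries. The part of microglial RNA in the effects of the other cell types was not tested, here or for the disease-associated genes.

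**Figure D5:**
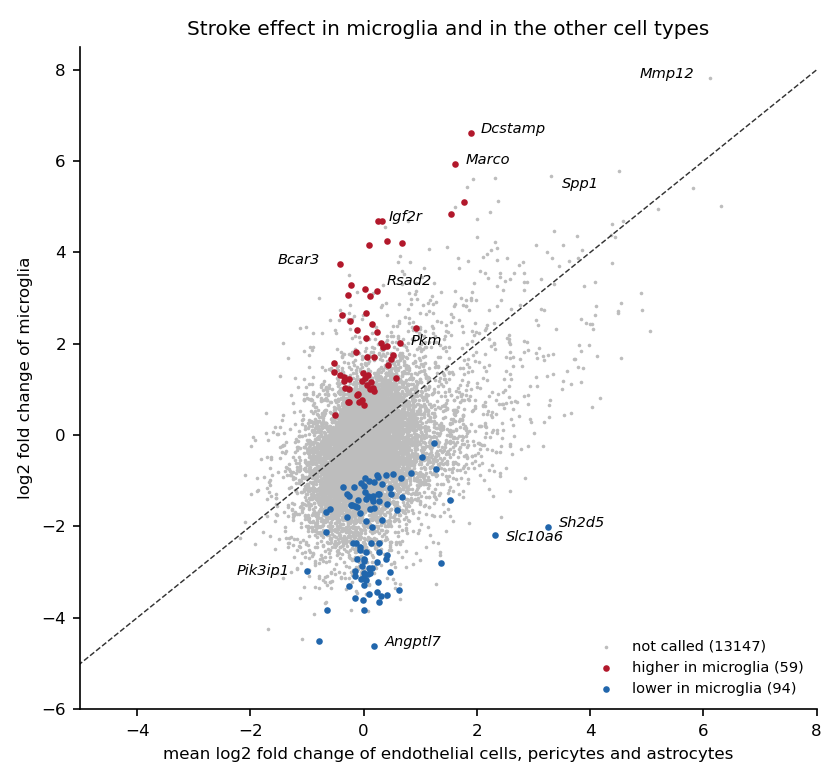
Stroke effect in microglia (log2 fold change) against the mean effect in the other 3 cell types for 13300 genes in the joint fit; colored points are the 59 genes higher and 94 lower in microglia, and the dashed line marks equal effects. *Igf2r* and *Dcstamp* lie far above the line, and *Sh2d5* and *Slc10a6* far below it.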

How the data were processed

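RNA of sorted microglia was sequenced by the authors after SMART-Seq HT amplification, trimmed with Trimmomatic 0.38, aligned to GRCm38 with STAR 2.6.1d, counted on exons with featureCounts 1.6.3 and normalized with DESeq2 1.18.1. The deposited values, normalized counts that the authors rounded to whole numbers, were treated here as a score and not as raw counts, so that no count test was run. Reads mapping to several places or genes were left out of the counts, so that genes with near-identical copies or pseudogenes (*Gapdh*, *Ldha*, *Fth1*, *Hspa1a*, *Hba-a1*, ribosomal genes) are uncertain in level. Whether counting used strand was not given in the sources used here.

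Hemispheres were compared in R 4.3.3 with limma 3.58.1 (lmFit, eBayes with a trend, two-sided, Benjamini-Hochberg adjustment over 13300 genes) on log2(value + 1), 6 against 6 libraries without a block. The fit was also run on simulated data with 200 changed genes. Those data had the same spread in both hemispheres, no pairing and no library that stood apart, unlike the real ones, so that they cannot show how the fit behaves here. Differences from the other cell types came from 1 fit of 48 libraries. Python 3.11.15 with pandas 2.3.3, numpy 2.4.6 and matplotlib 3.10.9 served for tables and plots, and promoters are from RefSeq (7635 tested genes with a single window). The 2 hemispheres of each replicate number were taken from 1 pool of mice, so that numbers pair the samples; same-numbered libraries deviated together with a correlation across genes of -0.03 to 0.35 (mean 0.14, against -0.03 for other numbers).

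Named were the 12 genes with the smallest p in each direction among those changed the same way in 6 pairs, the first 3 tested members and the 2 largest called changes of each list, members of counts of 5 or fewer, the 5 highest and 5 lowest differences, and cell type markers; some of these are given by their counts or not reported here. *Cxcl1*, *Cxcl2*, *Isg15*, *Gclm*, *Gapdh*, *Tpi1*, *Fth1*, *Ctsl*, *Vim*, *Siglech*, *Ccl12*, *Cst7*, *Fabp5*, *Hilpda*, *Mef2c*, *Cybb*, *Mt2*, *Pgam1* and *P4ha2* are outside this rule and were chosen after their values were seen. Members and lists were chosen with earlier results of these data known. Alternatives were pseudocounts of 0.1 and 10, the replicate block, rescaling within microglia, other filters, the joint fit, replicates 1 to 4 or 5 and 6 alone and each replicate number left out; their use on the gene lists was added after seeing the data.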

Additional observations from a re-analysis of the deposited data

Results flagged for a closer look

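In groups of 6 libraries, a highest or lowest value was taken as far from the rest when its gap to the nearest exceeded Dixon's 95% critical value. For normally distributed values, chance alone exceeds it in about 1 of 20 groups. The rule was applied to normalized counts and not to their log2, so that this rate need not hold here. Of the 110 groups of genes whose library values are given, 12 exceeded it, each with a high value. Ipsilateral replicate 2 was the library concerned in 6 genes, with 707269 normalized counts of *Spp1* (87954 to 306327 in the other 5), 663556 of *Fth1* (104325 to 310177), 54834 of *Cd68* (16251 to 28616), 44336 of *Ccl12* (12722 to 15724), 13327 of *Ccl2* (2599 to 3446) and 1146 of *Ccl5* (96 to 433), and in the neutrophil gene *S100a8*, with 9831 (571 to 2445). The same library stood apart in the summed neutrophil markers, 19569 (4388 to 7086), the mitochondrial share, 3.657% (0.725% to 1.182%), the share of the 20 highest genes, 28.08% (14.49% to 18.39%), and the sum of normalized counts, 16942165 (11218367 to 12391084). The calls of *Spp1*, *Fth1*, *Ccl12*, *Ccl2* and *Ccl5* were kept without replicate 2.

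The other far values were spread over the libraries. *Il1a* was 38438 in ipsilateral replicate 5 (7348 to 18794 in the others) and *Marco* 404 in ipsilateral replicate 6 (29 to 167), which also had the highest sum of pericyte markers, 2726 (311 to 905). On the contralateral side *Jun* was 116961 in replicate 4 (37033 to 58394), *Sall1* 3113 in replicate 3 (2334 to 2478), *Slc7a11* 398 in replicate 5 (65 to 138) and the sum of neuron markers 268 in replicate 2 (77 to 114).

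The stroke effect in microglia differed from the mean of the other 3 cell types, by the test of the difference itself, for 153 genes. Among those named, it was higher for *Dcstamp* (4.72), *Igf2r* (4.43), *Pld5* (4.37), *Marco* (4.32), *Bcar3* (4.17), *Rsad2* (2.92), *Pkm* (1.38) and *Pgk1* (1.18), and lower for *Sh2d5* (-5.27), *Angptl7* (-4.81), *Slc10a6* (-4.51), *Egr3* (-4.18), *Ebf3* (-4.01), *Jun* (-1.64) and *Tgfbr1* (-1.39). These are differences of log2 fold changes.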

How the results depend on the processing

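Of 159 named genes that were called, 62 kept their call under all 12 alternatives run for them, and none of the 268 named genes changed direction where it was called. Single alternatives kept between 86 (joint fit of 48 libraries) and 159 (pseudocount of 10) of the 159 calls. The count of regulated genes was 1258 with a pseudocount of 0.1, 1616 with 10, 1380 after rescaling within microglia and 1056 with no filter on low values. After rescaling, 49% of the calls were upward, beside 40.6% of the 1404 calls of the main fit, so that the excess of downregulated genes depended on the scaling. Replicates 1 to 4 alone gave 774 regulated genes (341 up, 433 down) and replicates 5 and 6 alone 137 (112 up, 25 down), with fewer libraries in each fit. The joint fit left 504 downregulated genes. With 1 replicate number left out, the count ranged from 541 to 1906 (upregulated 248 to 726, downregulated 293 to 1180), lowest without replicate 3 and highest without replicate 2; the cause was not tested. With the replicate block 1468 genes were regulated (1239 of them shared), and beside the genes given with their blocked values the calls of *Cdkn1c* (0.0611) and *Ddx5* (0.077) were lost, as adjusted p. The count of genes that differed from the other cell types was 237 with the replicate block, 346 with a pseudocount of 10 and 44 to 152 with a replicate number left out. Depth limits genes near the floor, which in ipsilateral replicate 3 lay at 8 normalized counts.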
